A study of Mus musculus with 8 samples.

Results

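Histone deacetylases, the corepressors that carry them and the acetyltransferases that oppose them were followed in mouse embryonic stem cells kept in sodium butyrate, an inhibitor of histone deacetylases. The genes were chosen by name: 45 genes, found through the gene name or an older synonym of each probe, out of 27670 gene names on the array. All 45 were on the array, with 91 probes, of which 78 were well above background often enough to be tested, and all 45 genes were among the 17190 genes tested. They make up 8 classes: 4 class I deacetylases, 4 class IIa deacetylases, 3 of class IIb and IV, 7 sirtuins, 7 genes of the SIN3, NCOR and CoREST corepressors, 8 subunits of the NuRD complex, 10 acetyltransferases and 2 readers of the BET family. The cells were R1, an established line of mouse embryonic stem cells. In the butyrate group, 4 samples had been kept for 15 passages in 0.2 mM sodium butyrate without the cytokine LIF (leukaemia inhibitory factor). In the LIF group, 4 samples had been kept with LIF and without feeder cells. Both groups grew on gelatin in medium with serum replacement. The samples were hybridised in pairs to 4 Agilent 2-colour arrays, butyrate always in Cy5 and LIF always in Cy3. The effect of the dye and that of the treatment therefore cannot be told apart, nor can butyrate and the absence of LIF. No separate derivations of the line are named for the replicates, and some of the spread behind the p-values may be technical.

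Histone deacetylases remove acetyl groups from lysines of histone tails, which is associated with silent chromatin, and acetyltransferases add them back. The class I enzymes Hdac1 and Hdac2 act inside multi-subunit corepressors, namely SIN3, CoREST and NuRD, while Hdac3 acts with NCOR. Class IIa enzymes shuttle between nucleus and cytoplasm, sirtuins use NAD in place of zinc, and BET proteins bind acetylated histones. Butyrate inhibits zinc-dependent deacetylases, chiefly those of class I, and leaves sirtuins largely untouched. In embryonic stem cells Hdac1 is the main class I activity, and NuRD with Mbd3 and Chd4 restrains genes that hold the cells undifferentiated.

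The measure was the log2 ratio of butyrate over LIF within an array, so a positive value means more RNA in butyrate. Over all 17190 genes, 75.0% passed at an adjusted p under 0.05 (limma with Benjamini-Hochberg adjustment over all genes), 41.7% higher and 33.3% lower in butyrate. Of the 45 genes, 37 passed, 19 higher and 18 lower, and 8 did not. The count is close to the background of the array, and most changes were small. A change of at least 1.5-fold was reached by 20.3% of all genes. Among the members it was reached by 5 upward, against 12.9% of all genes, and by 2 downward, against 7.39%. The 5 were the chromatin remodeller Chd3, the SIN3 scaffold Sin3b, the class IIa deacetylase Hdac7, the sirtuin Sirt7 and the NuRD subunit Gatad2a. The 2 were the CoREST subunit Rcor2 and the sirtuin Sirt5. The median log2 ratio was −0.02 over the members and 0.03 over all genes, and the median size of the change without its sign was 0.35 over the members and 0.25 over all genes. In 35 of the 45 members the 4 butyrate intensities did not overlap the 4 LIF intensities, against 67.9% of all genes.

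Direction depends on where an array is centred. With each array centred on the median of all its probes in place of loess, the median of all genes moved to 0.415, against 0.031 with loess. Under that centring 24 members passed as higher and 0 as lower, and 92.8% of all genes that passed were higher, against 55.7% with loess. The share was 47.3% with the log ratio of the scanner software, with 16 members higher and 19 lower. It was 45.9% with the authors' value table, again with 16 members higher and 19 lower. Relative to the median of all genes, 36 of the 37 members that passed stayed on the same side under loess and the 6 alternatives compared, the exception being Hdac3. In this measure the 2 centrings without loess are identical. Every member was well above background in both channels on all 4 arrays, and none was saturated.

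**Figure D1:**
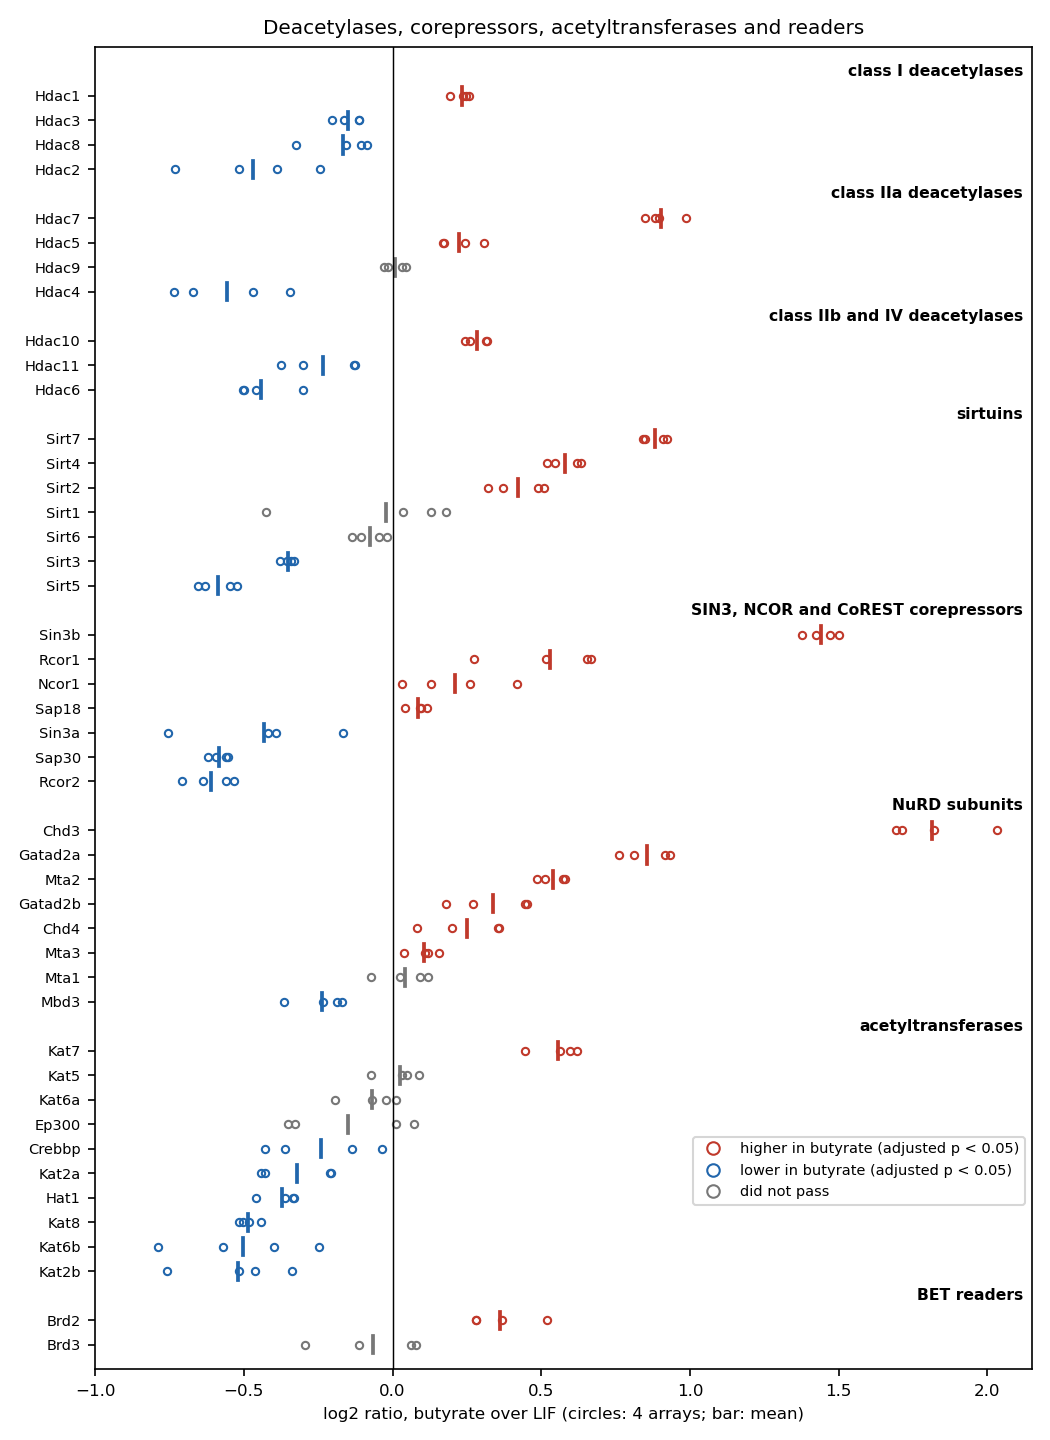
Log2 ratio of butyrate over LIF for the 45 genes, by class and, within a class, from the highest to the lowest mean. Circles are the 4 arrays and bars their means, coloured by direction where the adjusted p was under 0.05, and the highest mean is that of Chd3 at 1.81.

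The labelled cell type was checked against marker lists. Stem cell markers were well above background in both groups, but 10 of the 11 tested of 12 were lower in butyrate and 1, Nanog, was higher, with a median log2 ratio of −1.39. Their summed intensity, on a linear scale, was 57112 to 64108 over the butyrate samples, against 97373 to 103116 over the LIF samples. All 15 tested of 16 trophoblast markers were higher, with a median of 1.95, and their summed intensity was 134966 to 138286 in butyrate, against 34244 to 38290 in LIF. Krt8 and Krt18 were saturated on all 4 butyrate arrays, so the butyrate sum, to which they contribute most, and the median, which is the ratio of Krt8, may be understated. Elf5 and Dlx3 were not above background in any LIF sample and were tested through butyrate alone. Of 13 tested fibroblast markers of 15, 11 were higher and 2, Thy1 and Twist1, were lower, and the sums were 13844 to 14563 in butyrate, against 3219 to 3637 in LIF. Dcn and Col6a1 were likewise not above background in any LIF sample. The part of these cell types in the values below was not tested, and in bulk RNA fewer cells of a type and less RNA per cell cannot be told apart.

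Among the class I deacetylases, Hdac1 rose slightly and Hdac2, Hdac3 and Hdac8 fell, so this small class did not move as a block. Hdac1, the main class I deacetylase of embryonic stem cells, had log2 intensities of 14.08, 14.10, 14.15 and 14.12 in butyrate samples 1 to 4, against 13.83, 13.86, 13.90 and 13.92 in LIF samples 1 to 4. Every butyrate sample lay above every LIF sample, with a mean log2 ratio of 0.23 ± 0.028 (SD, n = 4), or 1.18-fold, and an adjusted p of 0.000317. Hdac2, which shares its complexes with Hdac1, had log2 intensities of 8.47, 8.60, 8.55 and 8.38 in butyrate, against 8.86, 8.84, 9.06 and 9.11 in LIF. All butyrate values lay below all LIF values, the LIF values of samples 3 and 4 being the highest, and the mean ratio was −0.47 ± 0.21 (adjusted p = 0.000491), 1.39-fold lower. Hdac3, the catalytic subunit of the NCOR complex, had ratios between −0.20 and −0.11, with a mean of −0.15 ± 0.045 and an adjusted p of 0.00512. Its intensities overlapped between groups, since both groups varied from array to array. With each array centred on its tested probes in place of loess its mean was 0.07, with an adjusted p of 0.543. Hdac8, an X-linked enzyme that deacetylates cohesin, averaged −0.17 ± 0.11 (adjusted p = 0.0116) on its brightest probe, but 0.15 ± 0.054 on its other tested probe, which passed as higher. Averaged over both probes, Hdac8 was at −0.0072 and did not pass (adjusted p = 0.865).

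Class IIa enzymes, which repress mainly through the corepressors they bind, went in different directions. By its brightest probe Hdac7 had the largest change of all deacetylases here. Its log2 intensities were 9.73, 9.77, 9.68 and 9.75 in butyrate, against 8.85, 8.93, 8.79 and 8.77 in LIF. The groups stood far apart, and the ratio averaged 0.90 ± 0.059, or 1.87-fold higher (adjusted p = 3.21e-07), above the ratio of 93.9% of all genes tested. Its other probe gave 0.53 ± 0.066, also higher. Sirt7 was at 0.88 on its brightest probe and 0.84 on its other, so the order of these genes rests on the probe used. Hdac4, studied mostly in bone and muscle, had log2 intensities of 8.87, 8.90, 8.79 and 8.97 in butyrate, against 9.34, 9.24, 9.46 and 9.71 in LIF. All butyrate values were below all LIF values, with a mean ratio of −0.56 ± 0.18 (adjusted p = 0.000102), 1.47-fold lower. Hdac5, its close relative, rose by a mean log2 ratio of 0.22 ± 0.065 (adjusted p = 0.000907), or 1.17-fold. That value is close to the shift of its chromosome: less the median of chromosome 11, Hdac5 was at 0.02 and did not pass (adjusted p = 0.669). Hdac9 averaged 0.0080 ± 0.035 and did not pass (adjusted p = 0.84), and 3 of its 4 probes were not above background on any array.

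The class IIb pair also split. Hdac6, the cytoplasmic tubulin deacetylase, had log2 intensities of 11.15, 11.23, 11.10 and 11.12 in butyrate, against 11.65, 11.53, 11.56 and 11.62 in LIF. Every butyrate sample lay below every LIF sample, with a mean ratio of −0.44 ± 0.096 (adjusted p = 3.87e-05), 1.36-fold lower; centred on the tested probes without loess, the ratio was −0.24, with an adjusted p of 0.0538. Hdac10, a polyamine deacetylase, averaged 0.28 ± 0.038 on its brightest probe (adjusted p = 0.000121), or 1.22-fold higher, while its other probe, at 0.08 ± 0.050, did not pass. Hdac11, the class IV enzyme, was lower at −0.23 ± 0.12 (adjusted p = 0.0033). With the log ratio of the scanner software Hdac11 was at −0.72 (adjusted p = 0.000255), and with an offset of 16 in place of 50 it was at −0.33 (adjusted p = 0.00785).

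Beside 41.7% higher and 33.3% lower over all genes, 3 of the 7 sirtuins rose, 2 fell and 2 did not pass. Their median ratio relative to all genes was −0.05 with loess but 0.17 without it, so no direction is given for the family. Sirt7, a nucleolar sirtuin, had log2 intensities of 11.63, 11.81, 11.83 and 11.84 in butyrate, against 10.78, 10.96, 10.92 and 10.92 in LIF. The groups did not overlap, and the ratio averaged 0.88 ± 0.041, or 1.84-fold higher (adjusted p = 2.59e-07). Its other probe gave 0.84 ± 0.022. The 3 mitochondrial sirtuins divided. Sirt4 had log2 intensities of 9.72, 9.76, 9.85 and 9.76 in butyrate, against 9.09, 9.21, 9.23 and 9.25 in LIF, with a mean ratio of 0.58 ± 0.056 (adjusted p = 2.87e-06). Sirt5, which removes succinyl and malonyl groups, had log2 intensities of 9.08, 8.97, 8.96 and 8.98 in butyrate, against 9.61, 9.52, 9.62 and 9.61 in LIF, with a mean ratio of −0.59 ± 0.063 (adjusted p = 3.15e-06), 1.5-fold lower. Sirt3, the main mitochondrial deacetylase, had ratios within −0.38 to −0.33 on the 4 arrays and a mean of −0.35 ± 0.021 (adjusted p = 2.61e-05). All samples of Sirt4 were higher, and all of Sirt5 and Sirt3 lower, in butyrate than any in LIF; without loess, on tested probes, Sirt3 was at −0.14 and did not pass (adjusted p = 0.182). Sirt2, which deacetylates tubulin, averaged 0.42 ± 0.090 (adjusted p = 4.26e-05), and its 3 probes were all higher, at 0.42, 0.24 and 0.12. Sirt1, a nuclear sirtuin expressed in stem cells, had ratios of 0.13, 0.18, 0.04 and −0.43, with a mean of −0.02 ± 0.28 (adjusted p = 0.849). The low value came from array 4, where the LIF sample was at 11.40, against 10.58 to 10.82 in the other LIF samples. Without replicate 4 the ratio of Sirt1 was 0.11 (adjusted p = 0.0533), while its other probe was lower, at −0.35 ± 0.14. Sirt6, a DNA repair factor, averaged −0.08 ± 0.054 and did not pass (adjusted p = 0.0843), but passed at −0.41 (adjusted p = 0.00062) with the scanner software's log ratio.

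Among the corepressor genes 4 rose and 3 fell, beside 41.7% higher and 33.3% lower over all genes. The sharpest contrasts lay between paralogs. The SIN3 scaffolds moved in opposite directions, as did the CoREST subunits. The promoters of these 4 genes are printed because their RNA diverged within each pair. Each is the window of 300 bases around the first RefSeq start listed for the gene on GRCm38.p6, most of it upstream, 5′ to 3′. Capitals mark GC boxes (GGGCGG on either strand) and CCAAT boxes (CCAAT on either strand). For Sin3a 2 starts are listed, and the shares given below also use only the first start of each gene. Sin3b lies at chr8:72723020-72723319, Sin3a at chr9:57071790-57072089, Rcor2 at chr19:7267144-7267443 and Rcor1 at chr12:111039117-111039416, all on the plus strand.
Sin3b: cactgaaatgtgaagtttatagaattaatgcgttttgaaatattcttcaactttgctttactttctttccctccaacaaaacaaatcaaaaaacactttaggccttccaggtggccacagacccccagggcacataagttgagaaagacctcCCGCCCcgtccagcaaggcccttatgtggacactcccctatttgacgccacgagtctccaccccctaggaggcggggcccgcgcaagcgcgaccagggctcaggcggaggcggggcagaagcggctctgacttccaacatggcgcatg
Sin3a: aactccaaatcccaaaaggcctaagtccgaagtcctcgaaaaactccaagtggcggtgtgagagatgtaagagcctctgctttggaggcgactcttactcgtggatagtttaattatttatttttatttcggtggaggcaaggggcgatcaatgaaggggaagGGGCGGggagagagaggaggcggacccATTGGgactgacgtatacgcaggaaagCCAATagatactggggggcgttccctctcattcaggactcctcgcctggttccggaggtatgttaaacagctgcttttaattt
Rcor2: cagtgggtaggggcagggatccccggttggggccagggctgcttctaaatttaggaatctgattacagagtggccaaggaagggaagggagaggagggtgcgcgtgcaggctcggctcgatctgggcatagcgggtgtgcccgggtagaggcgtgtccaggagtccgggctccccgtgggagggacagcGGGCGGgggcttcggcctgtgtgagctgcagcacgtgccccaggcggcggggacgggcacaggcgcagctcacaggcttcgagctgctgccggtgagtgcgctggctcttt
Rcor1: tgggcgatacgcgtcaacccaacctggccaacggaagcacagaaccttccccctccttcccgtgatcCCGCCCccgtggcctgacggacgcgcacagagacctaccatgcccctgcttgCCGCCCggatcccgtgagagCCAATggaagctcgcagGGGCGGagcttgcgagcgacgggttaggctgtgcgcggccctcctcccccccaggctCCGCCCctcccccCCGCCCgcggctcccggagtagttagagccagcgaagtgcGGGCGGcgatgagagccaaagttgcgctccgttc

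In these windows Sin3b and Rcor2 held 1 GC box each and 0 CCAAT boxes, Sin3a held 1 GC box and 2 CCAAT boxes, and Rcor1 held 6 GC boxes and 1 CCAAT box. Of the 45 genes, 39 had an entry in the RefSeq promoter table, and 71.8% of these held a GC box, against 46.3% of protein-coding genes and 35.9% of all genes. The share was 73.3% in members that rose and 76.5% in members that fell, so it was similar in both. A CCAAT box was in 7 of the 15 members that rose (46.7%), 10 of the 17 that fell (58.8%) and 1 of the 7 that did not pass (14.3%). It was in 39% of protein-coding genes and 37.9% of all genes, and the sets of members are small. A match is a string of letters and no evidence of binding.

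Sin3b, the scaffold linked to cell cycle exit, had log2 intensities of 15.48, 15.44, 15.42 and 15.41 in butyrate, against 14.06, 14.06, 13.95 and 13.91 in LIF. The groups stood widely apart, and the ratio averaged 1.44 ± 0.054, or 2.72-fold higher (adjusted p = 4.03e-08), above that of 98.1% of all genes. A second probe, like the brightest matched by a cDNA record, gave 1.21 ± 0.15. The third probe, the only Sin3b probe annotated with a RefSeq transcript, was not above background in any sample and was not tested. Sin3a, the scaffold required in early embryos, had log2 intensities of 11.11, 11.21, 11.23 and 11.30 in butyrate, against 11.53, 11.38, 11.62 and 12.06 in LIF. Butyrate lay below LIF throughout, with LIF sample 4 the highest, and the ratio averaged −0.43 ± 0.24 (adjusted p = 0.00165); centred on the tested probes without loess it was −0.23, with an adjusted p of 0.0972. Sap30, which ties deacetylases to SIN3, had log2 intensities of 10.57, 10.62, 10.67 and 10.78 in butyrate, against 11.13, 11.21, 11.23 and 11.40 in LIF. Its ratio was even over the arrays, at −0.58 ± 0.030 (adjusted p = 1.71e-06). Sap18, another SIN3-associated protein, was only marginally higher at 0.09 ± 0.031 (adjusted p = 0.0459), and leaving out any replicate raised its adjusted p to between 0.0507 and 0.144. Its dimmer probes rose more, by 0.29 and 0.43.

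Rcor2, the CoREST subunit typical of embryonic stem cells, had log2 intensities of 13.96, 13.88, 14.01 and 13.91 in butyrate, against 14.49, 14.52, 14.57 and 14.62 in LIF. No sample overlapped, and the ratio averaged −0.61 ± 0.080, or 1.53-fold lower (adjusted p = 3.89e-06). Rcor1, the broadly expressed CoREST subunit, had log2 intensities of 11.73, 11.60, 11.60 and 11.58 in butyrate, against 11.08, 10.93, 11.08 and 11.31 in LIF. All butyrate values were above all LIF values, with a mean ratio of 0.53 ± 0.18 (adjusted p = 0.000143). Its other tested probes gave 0.33, which was higher, and −0.0038, which did not pass. Ncor1, the nuclear receptor corepressor, averaged 0.21 ± 0.17 (adjusted p = 0.0147), with ratios of 0.26, 0.42, 0.13 and 0.03. Its other 4 tested probes did not pass, and without replicate 1 it was at 0.19 (adjusted p = 0.0632). With the median of chromosome 11 subtracted, Ncor1 was at 0.0045 (adjusted p = 0.953).

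**Figure D2:**
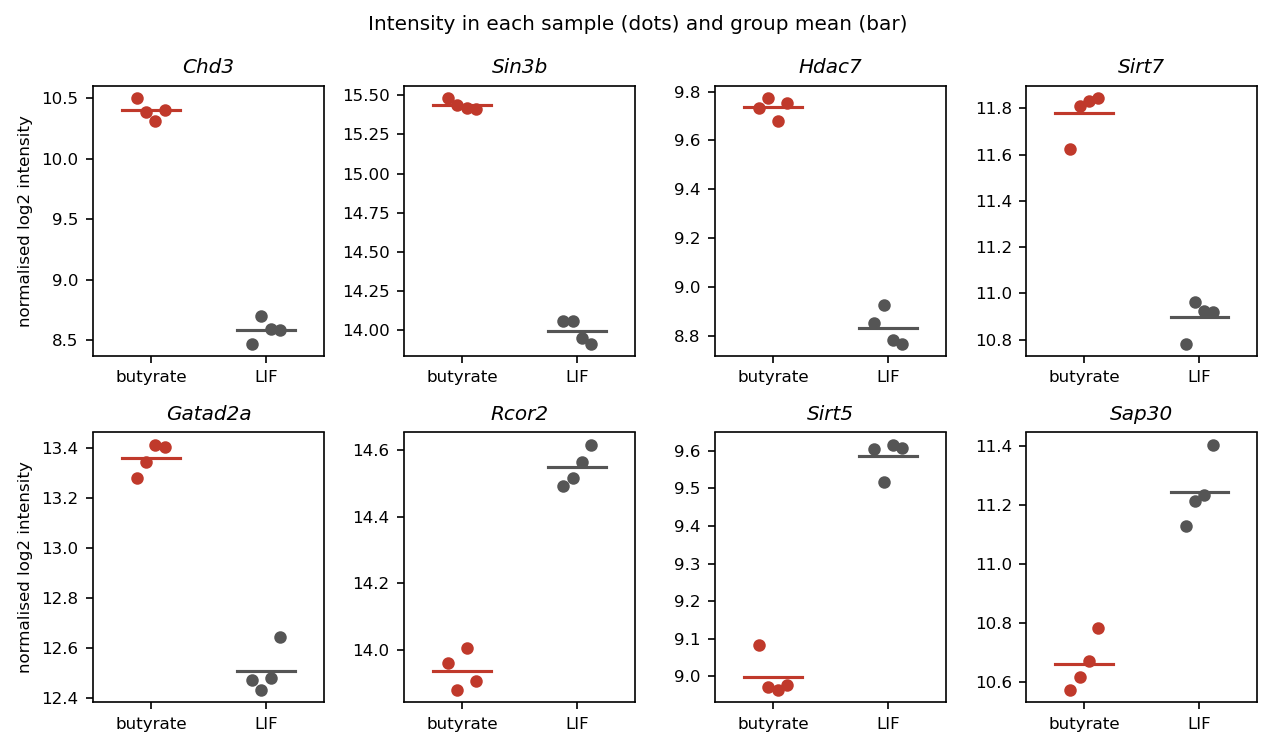
Normalised log2 intensity of 8 members in each of the 4 butyrate samples (left) and 4 LIF samples (right), with bars at group means and a separate vertical scale for each gene. The first 5, Chd3 to Gatad2a, lie higher in butyrate and the other 3, Rcor2, Sirt5 and Sap30, lower, with no overlap.

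Of the 8 subunits of NuRD, the remodelling and deacetylase complex, 6 rose, 1 fell and 1 did not pass, beside 41.7% higher and 33.3% lower over all genes. Its median ratio relative to all genes was 0.26 with loess and 0.26 to 0.46 over these scalings. Chd3, one of the alternative ATPase subunits, had the largest change of all 45 members. Its log2 intensities were 10.50, 10.39, 10.31 and 10.40 in butyrate, against 8.47, 8.69, 8.59 and 8.58 in LIF. The groups were far apart, and the ratio averaged 1.81 ± 0.15, or 3.52-fold higher (adjusted p = 1.03e-07), above that of 99.0% of all genes. A second probe gave 1.63 ± 0.12, also higher. Another 2 probes were not above background in any LIF sample and were tested through butyrate alone, so their direction adds nothing. Chd4, the ATPase that dominates in stem cells, averaged 0.25 ± 0.13 (adjusted p = 0.00296) on its brightest probe, while the other 2 tested probes, at −0.12 and −0.13, did not pass. Gatad2a, a bridging subunit, had log2 intensities of 13.28, 13.35, 13.41 and 13.40 in butyrate, against 12.47, 12.43, 12.48 and 12.64 in LIF. No values overlapped, with a mean ratio of 0.86 ± 0.083 (adjusted p = 7.07e-07), or 1.81-fold, and its dimmer probe was also higher, at 0.30 ± 0.16. Gatad2b, its paralog, averaged 0.34 ± 0.13 (adjusted p = 0.00055), or 1.26-fold higher, on its brightest probe. A dimmer Gatad2b probe gave 0.18 ± 0.13, also higher. The Gatad2b probe annotated with a RefSeq transcript, at 0.04 ± 0.027, did not pass.

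The MTA subunits, which hold the deacetylases in NuRD, differed in size of change. Mta2 had log2 intensities of 11.97, 11.95, 12.03 and 12.17 in butyrate, against 11.46, 11.37, 11.45 and 11.68 in LIF. All butyrate values lay above all LIF values, with a mean ratio of 0.54 ± 0.046 (adjusted p = 3.47e-06), but its dim second probe, at −0.04 ± 0.051, did not pass. Mta3 averaged 0.10 ± 0.050 (adjusted p = 0.0277) with overlapping groups, and its second probe 0.37 ± 0.064. Without replicate 2, 3 or 4 its adjusted p was 0.0654, 0.135 or 0.0636. Mta1 averaged 0.04 ± 0.086 and did not pass (adjusted p = 0.404). Mbd3, the subunit that stem cells need to leave self-renewal, had log2 intensities of 11.32, 11.37, 11.41 and 11.33 in butyrate, against 11.68, 11.60, 11.60 and 11.50 in LIF. Mbd3 was the only one of the 8 that passed as lower, at −0.24 ± 0.088 (adjusted p = 0.00113), 1.18-fold; without loess, centred on tested probes, it was at −0.04 (adjusted p = 0.762).

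Of the 10 acetyltransferases, 1 rose, 6 fell and 3 did not pass, beside 41.7% higher and 33.3% lower over all genes. Their median ratio relative to all genes was −0.31 with loess and between −0.37 and −0.21 over these scalings. Kat2b (PCAF) and Kat2a (GCN5), alternative enzymes of the same coactivator complexes, were both lower. Kat2b had log2 intensities of 8.62, 8.71, 8.63 and 8.55 in butyrate, against 9.08, 9.05, 9.15 and 9.31 in LIF, with a mean ratio of −0.52 ± 0.18 (adjusted p = 0.000134), and its second probe was lower too, at −0.21 ± 0.12. Kat2a had log2 intensities of 10.03, 10.06, 10.11 and 10.08 in butyrate, against 10.46, 10.27, 10.32 and 10.53 in LIF, with a mean of −0.32 ± 0.13 (adjusted p = 0.000674). Neither gene's groups overlapped. Without loess, on tested probes, Kat2a was at −0.11 and did not pass (adjusted p = 0.36).

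The MYST family gave both directions. Kat8 (MOF), the enzyme of H4K16 acetylation, had log2 intensities of 12.22, 12.25, 12.29 and 12.28 in butyrate, against 12.73, 12.73, 12.73 and 12.80 in LIF, and an even ratio of −0.49 ± 0.033 (adjusted p = 4.88e-06). Kat6b (MORF) had log2 intensities of 9.67, 9.81, 9.85 and 9.67 in butyrate, against 10.07, 10.05, 10.42 and 10.46 in LIF, and a mean ratio of −0.50 ± 0.23 (adjusted p = 0.000596). Both genes were lower in every butyrate sample than in any LIF sample, Kat6b with more spread among the LIF samples. Kat7 (HBO1), which acetylates H3 at replication origins and promoters, was the only gene of these 10 that rose. Its log2 intensities were 12.19, 12.20, 12.27 and 12.24 in butyrate, against 11.75, 11.61, 11.65 and 11.67 in LIF, with a mean ratio of 0.56 ± 0.078 (adjusted p = 6.17e-06), or 1.47-fold higher. Kat5 (TIP60) and Kat6a (MOZ) did not pass, at 0.02 ± 0.068 (adjusted p = 0.587) and −0.07 ± 0.089 (adjusted p = 0.179). Kat6a was dim, at a mean log2 intensity of 6.71, where the offset shrinks ratios. Relative to all genes Kat6a was at −0.10 with loess, −0.20 with the scanner's log ratio and −0.40 without loess.

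Hat1, the cytoplasmic enzyme that acetylates newly made histone H4, had log2 intensities of 14.07, 14.06, 14.05 and 13.95 in butyrate, against 14.43, 14.52, 14.38 and 14.29 in LIF. Butyrate was below LIF throughout, with a mean ratio of −0.37 ± 0.060 (adjusted p = 3.93e-05), 1.29-fold lower. The coactivators Crebbp and Ep300, close paralogs, both varied between arrays. Crebbp had ratios of −0.14, −0.04, −0.43 and −0.36, with a mean of −0.24 ± 0.18 (adjusted p = 0.0108). Its call was lost without replicate 3 (−0.18, adjusted p = 0.0518) and without replicate 4 (−0.20, adjusted p = 0.0505), and its dimmer probes did not pass. Centred on the tested probes without loess, Crebbp was at −0.03 (adjusted p = 0.84). Ep300 had ratios of 0.01, 0.07, −0.35 and −0.33, with a mean of −0.15 ± 0.22 that did not pass (adjusted p = 0.11). Without replicate 2 Ep300 was at −0.22 and passed (adjusted p = 0.0137).

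Of the 2 BET readers, Brd2 had log2 intensities of 14.23, 14.28, 14.46 and 14.31 in butyrate, against 13.86, 14.00, 13.94 and 14.03 in LIF. No values overlapped, and the ratio averaged 0.36 ± 0.11 (adjusted p = 0.000202), or 1.29-fold higher. Brd3 averaged −0.07 ± 0.18 and did not pass (adjusted p = 0.365), with ratios of 0.06, 0.08, −0.11 and −0.30. Its other tested probes passed in opposite directions, at −0.13 ± 0.077 and 0.34 ± 0.10.

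Related genes of a class were set against each other within an array, where a shift common to the array cancels. In all 13 pairs compared the difference had 1 sign on the 4 arrays, but with the probes of a gene averaged this held for 10 pairs. The same share over other pairs of genes was not computed, so the count shows nothing particular to paralogs. Not every related pair was compared, Hdac4 and Hdac5 being left out. An exact two-sided sign-flip test over 4 arrays cannot give a p below 0.125, so no pair could pass 0.05. Sin3b minus Sin3a was the widest, at 1.88 ± 0.29 on the log2 scale (3.67-fold). Chd3 exceeded Chd4 by 1.57 ± 0.18 (2.96-fold), and Rcor2 minus Rcor1 was −1.14 ± 0.14 (2.20-fold). The latter difference was −0.89 with probes averaged and −1.29 with chromosome medians subtracted. Hdac10 minus Hdac6 was 0.73 ± 0.12 and Hdac1 minus Hdac2 was 0.70 ± 0.19. In the acetyltransferases, Kat6b minus Kat6a was −0.43 ± 0.15, Kat2b minus Kat2a was −0.20 ± 0.14 and Crebbp minus Ep300 was −0.09 ± 0.050. These 3 were unstable: without loess Kat6b minus Kat6a turned to 0.09 and Crebbp minus Ep300 to 0.08, and Kat2b minus Kat2a turned to 0.07 with chromosome medians subtracted and shrank to −0.040 with probes averaged. Within NuRD, Gatad2b minus Gatad2a was −0.52 ± 0.13, Mta1 minus Mta2 was −0.50 ± 0.060, Mta3 minus Mta2 was −0.43 ± 0.043 and Mta1 minus Mta3 was −0.06 ± 0.040. With probes averaged, Mta1 minus Mta2 was −0.21, Mta3 minus Mta2 was −0.011 and Mta1 minus Mta3 was −0.20. Chd3 minus Chd4 was then 1.01, but that average holds the 2 Chd3 probes at background in LIF. With chromosome medians subtracted, Gatad2b minus Gatad2a was −0.25 and Mta3 minus Mta2 was −0.20. Brd3 minus Brd2 was −0.43 ± 0.21.

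**Figure D3:**
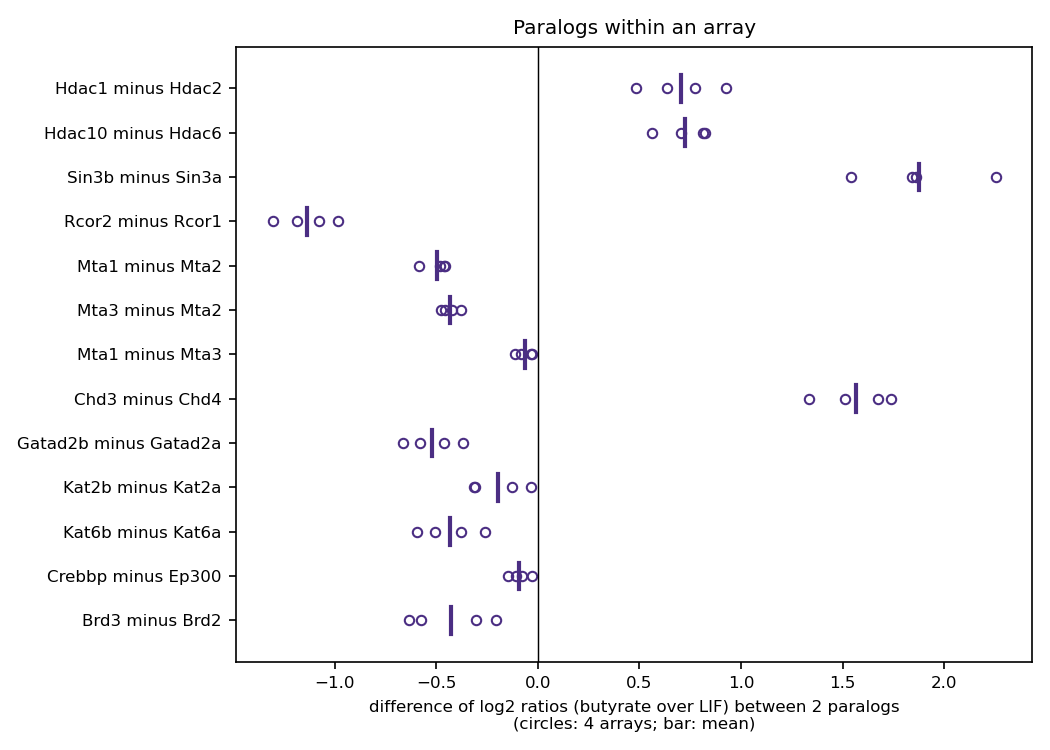
Difference between the log2 ratios (butyrate over LIF) of paralogs, first gene minus second, with circles for the 4 arrays and bars for the means. Sin3b minus Sin3a and Chd3 minus Chd4 lie farthest to the right, at 1.88 and 1.57, and Rcor2 minus Rcor1 farthest to the left, at −1.14.

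The probes of a gene did not always speak alike. Of the 21 members with more than 1 tested probe, 9 had all probes past the threshold in the same direction, among them Sin3b, Hdac7, Sirt7, Gatad2a and Kat2b. Chd3 and Kat7 are in this count too, but 2 of the 4 probes of Chd3 were above background on 0 LIF arrays and the second probe of Kat7 on 1, so those probes could hardly have differed in direction. In another 9 only some probes passed, all of those in the same direction, as for Mta2, Rcor1 and Chd4. Whether passed or not, all ratios lay on 1 side of 0 in 15 of the 21 members. In Mta2, Rcor1, Chd4 and Crebbp, probes that did not pass lay on the other side of 0 from the brightest. Hdac8 and Brd3 had probes that passed in opposite directions, and no probe of Ep300 passed. Such counts are not given for all genes, so these show nothing particular to the members. With the median of a gene's tested probes, Rcor1 was at 0.32, Mta2 at 0.25 and Sirt2 at 0.24, all still passing as higher, while Chd4 was at −0.08 and did not pass. The direction of a member with 1 tested probe, of which there were 24, rests on that probe.

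**Figure D4:**
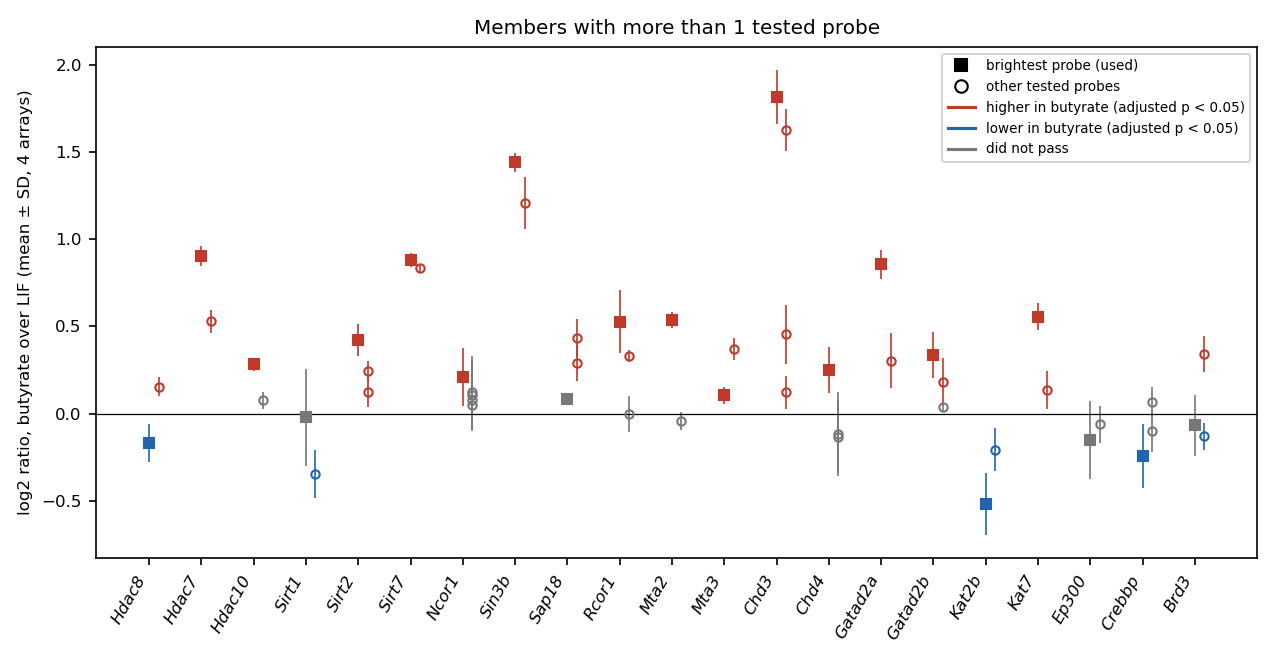
Mean log2 ratio of butyrate over LIF (± SD over 4 arrays) for every tested probe of the 21 members with more than 1, the filled square being the brightest probe and open circles the others, coloured by a fit over all 25662 tested probes. Both upper probes of Chd3, at 1.81 and 1.63, and both of Sin3b, at 1.44 and 1.21, lie well above 0. The probe means of Hdac8, Brd3, Mta2, Rcor1, Chd4 and Crebbp lie on both sides of 0.

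Position in the genome moved with the ratios. On GRCm38.p6, the median log2 ratio over all tested genes was 0.29 on chromosome 8, 0.21 on chromosome 11 and 0.18 on chromosome 19, and 0.12 on the X, while it ran from −0.06 to 0.04 on the others. Of the 13 members on chromosomes 8, 11 and 19, 8 rose and 3 fell, beside 62.4% higher and 16.7% lower over all genes there. Of the 32 members elsewhere, 11 rose and 15 fell, beside 38.1% higher and 38.0% lower over all genes there. The members' median was 0.22 on the 3 chromosomes and −0.11 elsewhere, against 0.22 and −0.0065 for all genes. The largest increases exceeded the shift of their chromosome: less its median, Chd3 on chromosome 11 kept 1.61, Sin3b on chromosome 8 kept 1.15, Sirt7 on chromosome 11 kept 0.68 and Gatad2a on chromosome 8 kept 0.57. Kat7 on chromosome 11 kept 0.35, and Hdac7 on chromosome 15 had 0.96. Sap30, Rcor2 and Kat2a went against their chromosomes, and less the median stood at −0.87, −0.79 and −0.53. With the medians subtracted, 16 members were higher and 20 lower, beside 38.9% higher and 38.3% lower over the 14496 genes placed on a chromosome. Hdac5, Ncor1 and Sap18 then no longer passed, and Kat6a and Kat5 passed as lower, at −0.35 (adjusted p = 0.000171) and −0.15 (adjusted p = 0.00654). What lies behind these medians was not tested.

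**Figure D5:**
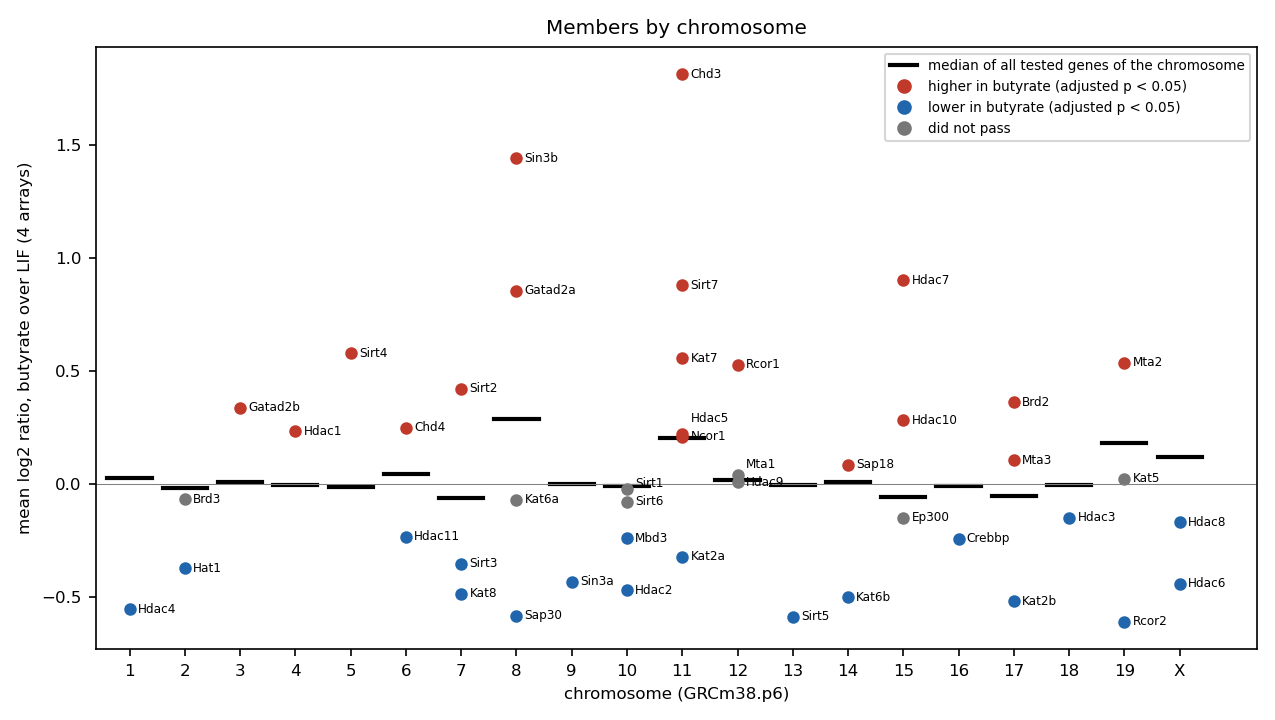
Mean log2 ratio of butyrate over LIF for the 45 members by chromosome (points, coloured by call), with a black bar for the median of all tested genes of each chromosome. The bars of chromosomes 8, 11 and 19 lie at 0.29, 0.21 and 0.18, and Chd3, Sin3b and Gatad2a lie above theirs.

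Other genes of the same machinery were counted in 3 lists, to be read beside 41.7% higher and 33.3% lower over all genes. Of 25 further partners of the deacetylase complexes, 14 rose, 6 fell and 5 did not pass, with a median of 0.12. The largest changes were increases: Zmynd8, a chromatin reader found with NuRD, rose by 1.34 ± 0.11 (2.52-fold), Gps2, a subunit of the NCOR complex, by 0.75 ± 0.075, Mbd2, the NuRD subunit that takes the place of Mbd3, by 0.74 ± 0.080, and Mier1, a partner of Hdac1 and Hdac2, by 0.63 ± 0.15. Of the 32 partners of acetyltransferase complexes tested out of 35, 11 rose, 10 fell and 11 did not pass, with a median of 0.05. Msl1, the scaffold of a complex of Kat8, rose by 1.21 ± 0.029 (2.32-fold), and the Kat7 partners Jade3 and Jade2 rose by 0.79 ± 0.12 and 0.71 ± 0.091. Phf20, a reader in the other complex of Kat8, was lower at −0.53 ± 0.11. Of 11 further acetyltransferases and bromodomain readers, 6 rose, 3 fell and 2 did not pass, with a median of 0.14. Among the 6, Brdt, named after its values were seen, was above background on 0 LIF arrays and was tested through butyrate alone. Brd7, a subunit of a SWI/SNF remodeller, rose by 0.61 ± 0.046, while Brd8 and Taf1 were lower, at −0.37 ± 0.027 and −0.33 ± 0.23. Gps2, Msl1 and Jade2 lie on chromosome 11, Brd7 on chromosome 8, and Jade3 and Taf1 on the X. The medians of these chromosomes, 0.21, 0.29 and 0.12, are not subtracted from the ratios and counts of the lists. Over the 3 lists together, the 11 genes named here with a ratio had adjusted p-values from 5.67e-08 (Msl1) to 0.00496 (Taf1).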

How the data were processed

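RNA of 8 samples was measured on 4 arrays. The 8 deposited scanner files were 4 distinct files. They give an intensity per spot and channel and a log10 ratio, made with Agilent Feature Extraction 9.1 per the submitters' processing notes. The deposited value table of the authors holds log2 values whose columns match the log2 processed signal of each channel, with a median of 6.487 each. The sources used here do not name the tool that normalised them.

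Normexp (offset 50, which shrinks the ratios of dim probes) was applied with limma 3.58.1 (R 4.3.3) to mean signals and median backgrounds, then loess with control spots at weight 0. Of 45018 spots 43379 were not controls, and 14 flagged spots were set to missing. Of 41174 probes, 25662 were tested (well above background on at least 3 arrays in either channel). The brightest tested probe stood for a gene. Names came from accessions (22951 probes), symbols (6659) or synonyms (3109) in a GRCm38.p6 RefSeq table, and 8455 kept the file's name. Ratios (Cy5 butyrate over Cy3 LIF) were fitted with lmFit and eBayes, with Benjamini-Hochberg adjustment over 17190 genes at 0.05. Intensities per sample are channel values after Aquantile. The median signal was 110 to 111.4 in butyrate and 62.8 to 66.0 in LIF, with 62.7% to 63.9% and 57.9% to 61.2% of spots well above background; precision is limited by the number of arrays. The array is a block within each ratio, and the pairing comes from the shared array: deviations of same-numbered samples correlated at 0.298, 0.158, 0.306 and 0.226 across genes, those of other numbers at −0.21 to 0.10.

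The members and gene lists were chosen with earlier results of these data known. Every member could be named, and of each other list up to 4 genes with the largest change that passed; 1 gene so picked is not reported here. Only the fit and its threshold were tested on simulated ratios. Background correction, loess and the choice of probe were not part of that test. Alternatives were other background corrections, centrings, dim-probe filters, probe summaries and variance models, the scanner's log ratio, the authors' table, fits with no or a random block, and each replicate left out. Plots used matplotlib 3.10.9 (Python 3.11.15).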

Additional observations from a re-analysis of the deposited data

Results flagged for a closer look

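Among 172 sets of 4 values (the intensities and ratios of the members, the ratios of genes named from the lists and the paralog differences), 9 had a sample set apart by Dixon's test, or 5.23%; chance sets apart about 1 in 20. Of these, 4 were butyrate sample 1. It was high for Sirt5 (log2 intensity 9.08, the others 8.96 to 8.98), for Ncor1 (12.34, the others 12.09 to 12.12) and for Rcor1 (11.73, the others 11.58 to 11.60), and low for Sirt7 (11.63, the others 11.81 to 11.84). LIF sample 4 was high for Hdac8 (7.85, the others 7.73 to 7.75) and for Kat8 (12.80, the others 12.73). LIF sample 2 was low for Sirt5 (9.52, the others 9.61 to 9.62). Butyrate sample 4 was low for Hat1 (13.95, the others 14.05 to 14.07). Among the marker genes, the fibroblast gene Postn had a log2 ratio of 2.51 on array 2, against 3.43 to 3.48 on the others.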

How the results depend on the processing

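Of the results for the whole set, the counts moved by over 1.5 times under centring on the median of all probes without loess: 24 members passed, 0 of them lower, and 758 of all genes were lower. Under the other settings 33 to 38 members passed. Single members turned sign as follows. Under that centring the ratios were 0.082 for Hdac2, 0.46 for Hdac3, 0.24 for Hdac8, 0.022 for Hdac4, 0.15 for Hdac6, 0.58 for Sirt1, 0.24 for Sirt3, 0.12 for Sirt6, 0.16 for Sin3a, 0.020 for Sap30, 0.35 for Mbd3, 0.28 for Kat2a, 0.046 for Kat2b, 0.013 for Kat6a, 0.10 for Kat6b, 0.083 for Kat8, 0.28 for Ep300, 0.36 for Crebbp, 0.13 for Hat1 and 0.51 for Brd3. Centring without loess on the tested probes gave 0.067 for Hdac3, −0.37 for Hdac9, 0.19 for Sirt1 and 0.12 for Brd3, and either centring gave 0.088 for Kat6b minus Kat6a and 0.080 for Crebbp minus Ep300. The scanner's log ratio gave −0.062 for Hdac9 and −0.055 for Kat5, the authors' table −0.13 for Hdac9, −0.0043 for Mta1 and −0.060 for Kat5, and no background correction −0.015 for Hdac9. The mean of a gene's probes gave 0.014 for Crebbp minus Ep300, −0.00073 for Chd4 and 0.048 for Brd3, and the median 0.0063 and −0.084 for the first 2. Subtracting the chromosome median, chosen after seeing the data, gave 0.067 for Kat2b minus Kat2a, −0.010 for Hdac9 and −0.15 for Kat5. The causes were not tested.

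Leaving out each replicate left 34 to 36 members passing; the ratio then ran from −0.0042 to 0.020 for Hdac9, from −0.087 to 0.11 for Sirt1 and from −0.12 to 0.0094 for Brd3, crossing 0 without replicate 1 for Hdac9 and without replicate 4 for the other two. With no replicate block 36 members passed, 18 higher and 18 lower, and Sap18 was lost (adjusted p = 0.112). With a random block 37 passed, Sap18 was lost (adjusted p = 0.0712) and Sirt6 gained (adjusted p = 0.0472).

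All 4 arrays had the same dye orientation, so transcript-specific dye bias is part of every ratio. Ratios near the background are shrunk by the offset.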
